A study of Mus musculus with 7 samples.

Results

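The clustered histone genes are the protein-coding genes whose symbols begin with Hist1h, Hist2h, Hist3h or Hist4h, and HDAC1 occupancy was examined at each of them in the mouse limb bud. In the GENCODE M21 annotation (mm10) 70 symbols had this form, of which 67 were protein coding and 3 were pseudogenes. The 67 genes were all kept, of 21864 protein-coding genes with a basic coding transcript. They comprised 6 linker histone H1 genes, 18 H2A genes, 18 H2B genes, 12 H3 genes and 13 H4 genes. By cluster, 54 belonged to Hist1 on chromosome 13, 10 to Hist2 on chromosome 3, 2 to Hist3 on chromosome 11 and 1, Hist4h4, to chromosome 6.

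HDAC1 binding was assayed by ChIP-seq, in which an antibody recovers DNA fragments bound by a protein from fixed chromatin. There were 4 HDAC1 ChIP samples and 3 input samples without antibody, all from Swiss Webster embryos at E11.5 (40 to 44 somites) with forelimb and hindlimb buds combined, and the labels give 3 litters as the source. No mutant or treated group was part of the experiment. Whole limb buds mix mesenchyme, ectoderm and other cells in all phases of the cell cycle, so a peak cannot be assigned to a cell type or to a phase. The authors combined the samples into 1 ranked list of 15347 HDAC1 peaks, and the deposited file holds coordinates and rank order. The study also lists an enrichment and an FDR for single peaks, and neither was used here. Values for separate samples, and therefore replicate error and the depth behind a peak, cannot be had from the deposited file. Shares carry 95% Wilson intervals computed over genes, which are not replicates, and neighbouring histone genes can share a peak. Since the list has no replicates, no difference described here has a test.

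The clustered histone genes are the replication-dependent histone genes. They are expressed at high levels in S phase to package newly made DNA, they lack introns, and most of their transcripts end in a conserved stem-loop in place of a poly(A) tail. H2A and H2B genes often lie head to head and share the DNA between their start sites as a divergent promoter. HDAC1 is a class I histone deacetylase that works in corepressor complexes and is also found at many active promoters.

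HDAC1 peaks were found at most clustered histone genes. A peak lay within 1 kb of the gene body for 57 of 67 genes (85.1%, interval 74.7 to 91.7%), against 47.2% of all protein-coding genes. For 53 genes (79.1%) a peak overlapped the gene body itself, which held for 45.0% of all protein-coding genes. The genes differed more from the rest in how much of each gene was under a peak. Peaks covered at least 50% of the gene body of 36 clustered histone genes (53.7%, interval 41.9 to 65.1%), against 1.08% of all protein-coding genes. Histone genes are short, with a median gene length of 539 bp (range 312 to 37455 bp) in this annotation, and a peak of given length covers more of a short gene. Among the other 2515 protein-coding genes with a single exon, 3.62% were covered to at least 50%, and 13% (interval 11.7 to 14.3%) had a peak within 1 kb. Most of these genes thus had no peak. Among genes with a peak within 1 kb, 36 of 57 clustered histone genes and 91 of 326 other single-exon genes were covered to at least 50%. The single-exon genes were not matched to the histone genes for length or expression.

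**Figure D1:**
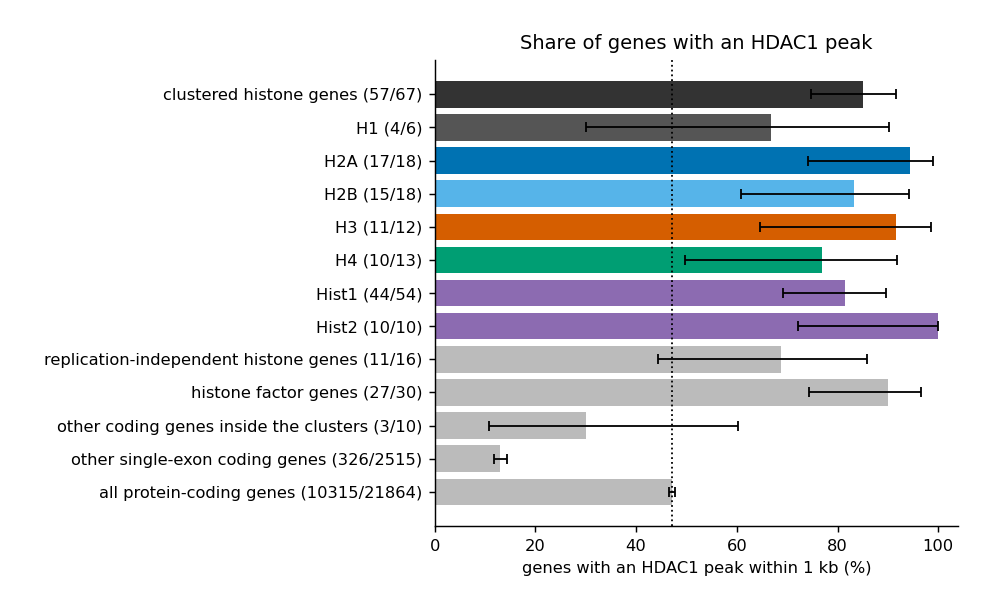
Share of genes (%, horizontal axis) with an HDAC1 peak within 1 kb of the gene body, for the clustered histone genes, their histone types and main clusters, and for comparison lists. Bars give the share, whiskers the 95% Wilson interval over genes and the dotted line the share of all protein-coding genes (47.2%). The bar of the clustered histone genes ends at 85.1% and that of other single-exon coding genes at 13%.

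By histone type the share with a peak within 1 kb was highest for H2A and lowest for H1, with overlapping intervals. H2A and H2B form the dimers on the outside of the nucleosome core, and a peak was present at 17 of 18 H2A genes (94.4%, interval 74.2 to 99.0%) and 15 of 18 H2B genes (83.3%, interval 60.8 to 94.2%). H3 and H4 form the central tetramer, and a peak was present at 11 of 12 H3 genes (91.7%, interval 64.6 to 98.5%) and 10 of 13 H4 genes (76.9%, interval 49.7 to 91.8%). Of the H1 genes, whose products bind linker DNA, 4 of 6 had a peak (66.7%, interval 30.0 to 90.3%). The peak was next required to overlap the coding sequence, a rule added after the data had been seen. Every type had the same count by the planned rule of a peak over the gene body. By the coding sequence rule 53 of 67 members (79.1%) had a peak, against 26.7% of all protein-coding genes. The H2A, H3, H4 and H1 counts were unchanged, whereas H2B fell to 11 of 18 genes (61.1%, interval 38.6 to 79.7%, overlapping that of H2A). The 4 genes with a peak only outside their coding sequence were thus all H2B genes, namely Hist1h2bm, Hist1h2bn, Hist1h2bp and Hist1h2bf. The median share of the coding sequence under peaks, over all genes of a type, was 100% for H3, 93.7% for H2A, 82.5% for H4, 62.0% for H1 and 36.6% for H2B. The interval of the median ran from 0 to 100% for H1, H2B and H4, so the order of these types is not resolved.

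The Hist2 cluster was the most completely occupied of the clusters with several genes. Hist2 spans 50.3 kb (chr3:96219865-96270132), and all 10 of its genes had a peak over the coding sequence that covered 98.4 to 100% of it. These genes encode H2A (Hist2h2ab, Hist2h2ac, Hist2h2aa1 and Hist2h2aa2), H2B (Hist2h2be and Hist2h2bb), H3 (Hist2h3b, Hist2h3c1 and Hist2h3c2) and H4 (Hist2h4). In Hist1 a peak lay within 1 kb of 44 of 54 genes (81.5%, interval 69.2 to 89.6%). Hist1 consists of parts separated by a long stretch without members, and its first segment (chr13:21715763-22043676, 328 kb) had peaks at 21 of 23 genes (91.3%). The other segment (chr13:23531050-23934851, 404 kb) had peaks at 23 of 31 genes (74.2%), and 8 of the 10 members without a peak lay in it. Both Hist3 genes had a peak, over 97.4% of the coding sequence of Hist3h2ba (H2B, chr11:58948920-58949533) and over 64.1% of that of Hist3h2a (H2A, chr11:58954685-58956830). Hist4h4 (chr6:136801553-136804415), which encodes H4, had a 400 bp peak over its whole coding sequence.

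Within the clusters most peaks lay within 1 kb of a histone gene. Over the whole list, 13204 of 15347 peaks lay within 1 kb of a protein-coding gene. Nearness to a gene is thus not particular to the peaks of the clusters. The share of the genome within that distance of a gene is not given here. In the 404 kb segment of Hist1, 29.0% of the sequence lay within 1 kb of a member, and all 25 peaks of the segment were there. In the 328 kb segment that portion was 14.6% and held 19 of 24 peaks. The other 5 peaks of that segment had low to middle ranks, with ranks 11382, 12865 and 13735 between genes, rank 14403 in Zfp184, a zinc finger gene, and rank 6940 in Pom121l2. In Hist2, 9 of 10 peaks lay within 1 kb of a member, and the remaining one (rank 9623, 500 bp, chr3:96250800-96251299) overlapped no coding gene. Other protein-coding genes inside the clusters had a peak within 1 kb in 3 of 10 cases (30.0%, interval 10.8 to 60.3%). These were Zfp184, Pom121l2 and Trim17, and Trim17 shares its annotated start with Hist3h2a and thus the same peak (rank 3758). The other 7 were Prss16, the iron regulator Hfe, Trim38 and the transporter genes Slc17a1, Slc17a2, Slc17a3 and Slc17a4. Their nearest peaks were between 5864 bp (Trim38) and 131841 bp (Slc17a4) away.

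**Figure D2:**
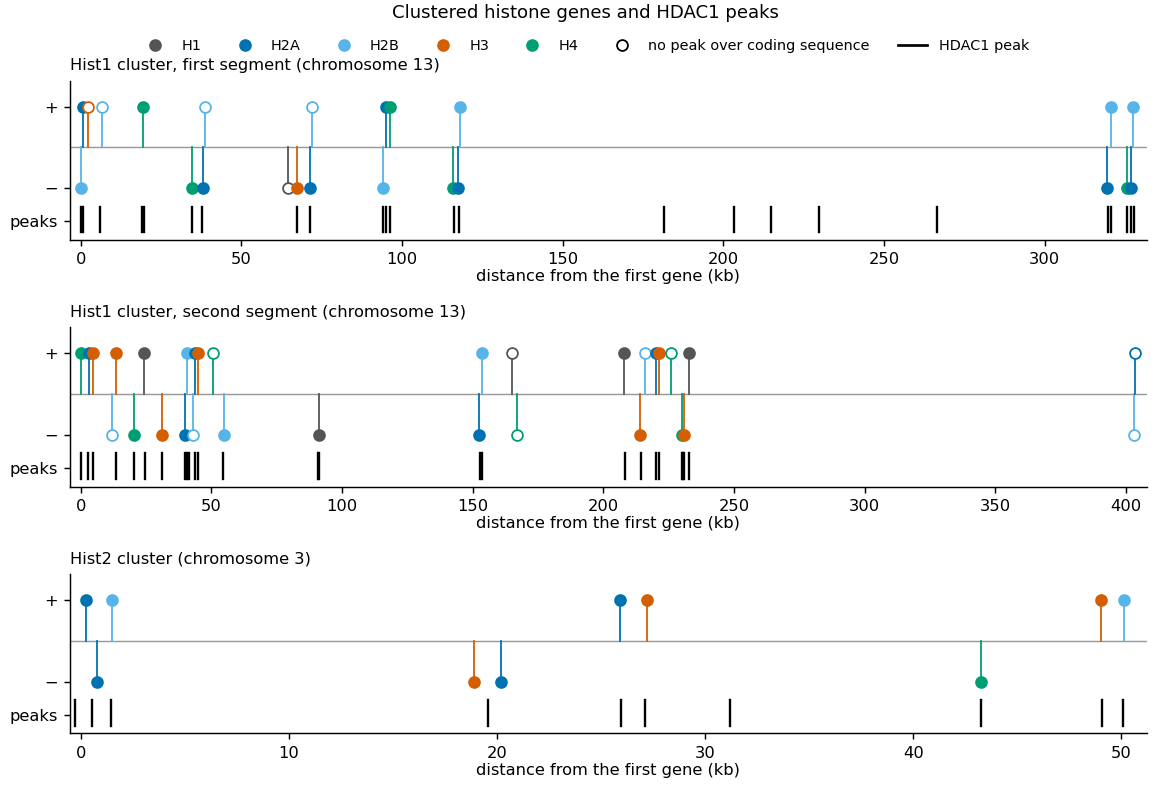
Positions of histone genes and HDAC1 peaks in both segments of Hist1 and in Hist2, with the distance from the first gene (kb) on the horizontal axis. Circles above and below the line are genes on the plus and minus strand coloured by histone type, open circles are genes without a peak over the coding sequence, and black ticks are peaks. The ticks sit below or near the genes, except for 5 in the first Hist1 panel and 1 in the Hist2 panel. The pair at the right end of the second Hist1 panel has no tick.

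Of the 67 genes, 10 had no peak within 1 kb, all of them in Hist1. They included all 3 genes of the set whose expression is restricted to or highest in the testis, Hist1h1t, Hist1h2ba and Hist1h2aa, which encode the germ cell forms of H1, H2B and H2A. Hist1h2ba and Hist1h2aa lay 169724 and 170413 bp from the nearest peak, farther than any other member. Hist1h1t lay 11115 bp from one, and its neighbour Hist1h4c lay 12936 bp from one. The other 6 were closer to a peak: Hist1h2bh at 1008 bp, Hist1h3h at 1010 bp, Hist1h2bb at 1085 bp, Hist1h1b at 2325 bp, Hist1h4d at 2615 bp and Hist1h4b at 3491 bp. With 5 kb on each side 63 of 67 genes (94.0%) had a peak, against 50.3% of all protein-coding genes. The 4 genes beyond 5 kb were thus the 3 testis genes and Hist1h4c. The 4 genes counted only through the flank lay well inside the 1 kb limit, at 212 bp (Hist1h2bp), 245 bp (Hist1h2bm), 304 bp (Hist1h2bf) and 324 bp (Hist1h2bn) from a peak.

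There were 56 peaks within 1 kb of the clustered histone genes. Of these, 22 lay near 1 member, 29 near 2 and 5 near 3. A coding sequence was overlapped by 51 of the 56 peaks, and 48 of these overlapped a single one. The like share for peaks at other genes is not given here, so these counts are not a comparison. The peaks were of ordinary length for this list, with a median of 475 bp (interval of the median 400 to 550 bp, range 150 to 2550 bp) against 450 bp for all peaks and 500 bp for the 13204 peaks within 1 kb of protein-coding genes. Peaks of 1000 bp or more made up 12.5% (7 of 56) of those at histone genes and 17.6% of all. Measured against the gene, the median ratio of peak length to gene length was 0.663 (interval 0.560 to 0.806), with 41 peaks no longer than their gene and 15 longer. The lowest ratio was 0.0120 at Hist1h2be, an H2B gene annotated over 37455 bp, and the highest was 2.50 at Hist2h3c2.

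The 2 longest peaks each covered 2 neighbouring members, and the next 3 each lay over 1. The longest, of 2550 bp (rank 2441, chr3:96238150-96240699), ran over the H3 gene Hist2h3c2 and the H2A gene Hist2h2aa2, which lie in the same orientation. The next, of 1850 bp (rank 5758, chr13:21832650-21834499), ran over the divergent pair Hist1h2ap and Hist1h2br. A peak of 1600 bp (rank 694, chr3:96246150-96247749) covered the coding sequence of Hist2h3c1, an H3 gene, and one of 1200 bp (rank 5783) covered Hist1h3g, another H3 gene. The fifth, of 1150 bp (rank 5532), covered the coding sequence of the linker histone gene Hist1h1c. At the other end the shortest peak at a member, of 150 bp (rank 8511), lay upstream of Hist2h2ab.

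The ranks of the histone gene peaks were spread over most of the list. Their median rank was 7389 (interval 6233 to 8511, range 694 to 15062), against 7166 for peaks at protein-coding genes. The first 7674 peaks of the list held 30 of the 56 (53.6%), but the first 1534 peaks held only 2 (3.57%). Counted by gene, 42 of 67 members (62.7%, interval 50.7 to 73.3%) had a peak among the first 7674, against 32.3% of all protein-coding genes. The best ranked peak was that at Hist2h3c1 (rank 694), followed by one over the H3 gene Hist1h3e (rank 909, 550 bp, chr13:23561850-23562399), one over the H3 gene Hist2h3b (rank 1733, 650 bp), one over the linker histone gene Hist1h1e (rank 1899, 450 bp) and the long peak at Hist2h3c2 (rank 2441). Of these 5 peaks, 4 lay over H3 genes, and the one of rank 2441 also covered the H2A gene Hist2h2aa2. The lowest ranked lay over the H4 genes Hist1h4f (15062) and Hist1h4i (14376), the H2B gene Hist2h2bb (14207), and the H2A genes Hist1h2ad (14172) and Hist1h2ab (13565). Of these, 3 also lay within 1 kb of an H3 gene, namely Hist2h3b for rank 14207, Hist1h3d for rank 14172, which was also near Hist1h2bf, and Hist1h3b for rank 13565.

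By cluster, the median of the best rank per gene was 2441 in Hist2 (range 694 to 3634), 5871 in the first segment of Hist1 and 6233 in the other. Only 10 members carry the Hist2 value, and they share peaks. Counted by peak, the median rank was 3634 (interval 1733 to 8511) in Hist2, 7240 (5225 to 12048) in the first segment of Hist1 and 7928 (6233 to 10828) in the other, with overlapping intervals, and Hist2 also held peaks at ranks 6671, 7738, 8511 and 14207. By type the medians of the best rank per gene were 4675 for H1, 5708 for H3, 5783 for H2A, 6233 for H2B and 7285 for H4, with overlapping intervals. Peaks fell in length with rank across the whole list, and 23 of the 56 histone gene peaks (41.1%) were shorter than the median of all peaks in the same fifteenth of the list. Some of the best ranked peaks were short for their rank, including those at Hist1h3e (550 bp), Hist1h1e (450 bp), Hist2h4 (rank 3634, 350 bp) and Hist3h2a (rank 3758, 250 bp).

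**Figure D3:**
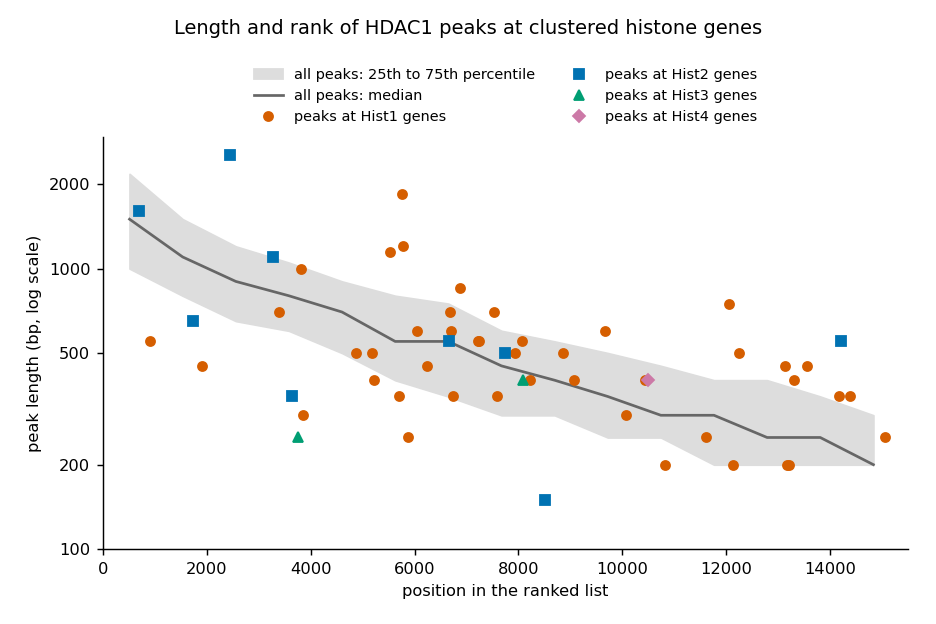
Length of each HDAC1 peak at clustered histone genes (bp, log scale) against its position in the ranked list, by cluster. The grey line and band give the median and the 25th to 75th percentile of all peaks in successive fifteenths of the list. Peaks at histone genes lie on both sides of the line, with the best ranked of them at 694 and the lowest at 15062.

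The peaks lay over the coding sequences more often than over the annotated start sites. The annotated start is the first coding base in some members, such as Hist1h2bl and Hist1h4k. It lies far from the coding sequence in others, such as Hist1h2be, so the start site shares depend on the annotation. In genes with a peak within 1 kb, the middle of the coding sequence was under a peak in 51 of 57 histone genes (89.5%, interval 78.9 to 95.1%). The share was 52.8% (interval 47.3 to 58.1%) in the other single-exon coding genes. Over all protein-coding genes it was 4.35%, but the point taken was the genomic midpoint between the first and last coding base. In genes with introns this point can lie in an intron, so the 4.35% is not a like measure. The stop codon was under a peak in 70.2% of histone genes and 35.6% of the other single-exon genes. Toward the 5′ end the groups were less far apart. The start codon was under a peak in 59.6% (interval 46.7 to 71.4%) of histone genes, 49.5% of all protein-coding genes and 68.1% of the other single-exon genes. The transcription start site (TSS) of the principal transcript was under a peak in 52.6% (interval 39.9 to 65.0%) of the histone genes, 59.5% of all protein-coding genes and 60.4% of the other single-exon genes, so the histone interval held both comparison values. At 250 bp downstream of the TSS the shares were 82.5%, 65.3% and 66.9%. Over all 67 members, peaks covered any annotated TSS in 30 (44.8%), against 32.8% of all protein-coding genes. Among genes with a peak within 1 kb, the same rule gave 30 of 57 histone genes, 7171 of 10315 protein-coding genes and 210 of 326 other single-exon genes. By this rule the share among genes with a peak was lowest in the histone genes.

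The histone genes with a peak had a median of 97.4% (interval 86.9 to 100%) of the coding sequence covered, and the other single-exon genes with a peak a median of 54.3% (interval 44.4 to 68.4%). These single-exon genes are longer, with a median gene length of 2726 bp, so the comparison is not matched for length. Over all protein-coding genes with a peak the median share of the coding sequence covered was 1.78% (interval 1.51 to 2.07%). In all, 50 of 67 members had at least 50% of the coding sequence under peaks and 26 had all of it. The shares of all protein-coding genes by these rules are not given here. Seen from the peak, a median of 65.2% (interval 56.9 to 74.2%) of its length lay in coding sequence of members. No such value is given for peaks at other genes.

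Along the gene, the share of histone genes under a peak was 38.6% at 500 bp upstream of the start codon, was lower at 29.8% at 100 bp upstream, and was highest at 89.5% near the middle of the coding sequence. It was 45.6% at 100 bp downstream of the stop codon. In the other single-exon genes the highest share, 69.9%, lay just inside the start codon, and the share 100 bp upstream was 63.8%. The dip upstream of the start codon was therefore seen in the histone genes and not in the other single-exon genes, where the share rose toward the start codon. The profile counts any peak at a position, including one over a neighbouring member. In divergent pairs the coding sequence of the partner lies in this upstream stretch, and of the 56 peaks 29 lay near 2 members and 5 near 3. The part of neighbouring genes in the dip was not tested. The distance from the TSS to the centre of the nearest peak did not separate the groups as clearly, with medians of 199.5 bp downstream for histone genes, 174 bp for all protein-coding genes and 256 bp for the other single-exon genes.

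**Figure D4:**
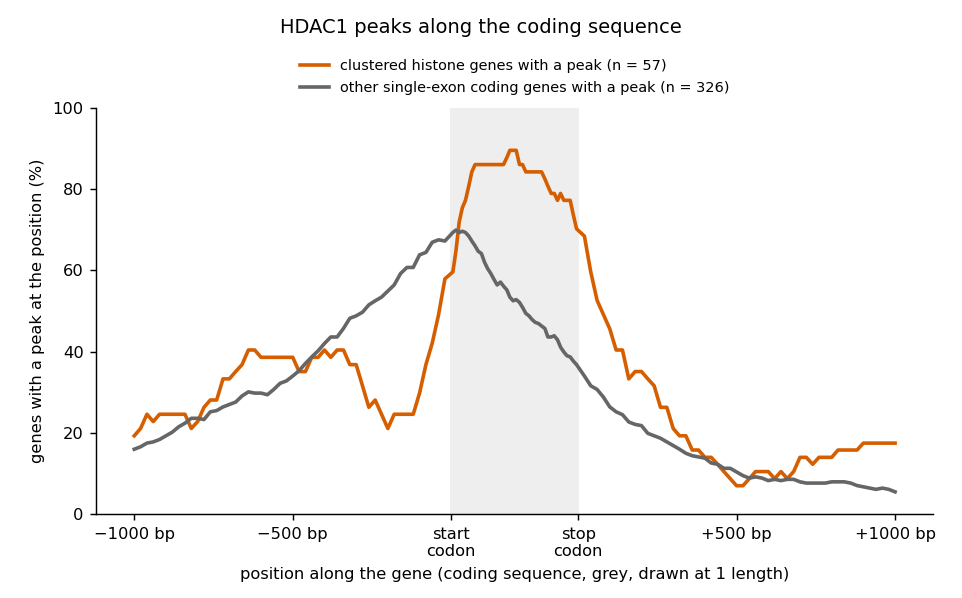
Share of genes (%, vertical axis) under an HDAC1 peak at positions from 1000 bp upstream of the start codon to 1000 bp downstream of the stop codon, with coding sequences scaled to 1 length (grey). The orange line is the 57 clustered histone genes with a peak and the grey line the 326 other single-exon coding genes with a peak. The orange line reaches 89.5% inside the coding sequence and is at 29.8% 100 bp upstream of it, where the grey line is at 63.8%.

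Divergent pairs showed the same arrangement. Their genes and peaks are largely those of the profile above, so the pairs are not a separate observation. There were 13 pairs of neighbouring members with start sites pointing apart and at most 1 kb from each other, 12 of them of an H2A and an H2B gene, with a median of 279 bp (176 to 660 bp) between start sites. A peak lay within 1 kb of the middle in 12 pairs, but the middle itself was covered in 2 (16.7%), Hist1h2ap with Hist1h2br and Hist1h2ag with Hist1h2bj. The 300 bases around the start of Hist1h2br, which hold this middle, are identical to those of Hist1h2bq. Peaks covered 100% of them at Hist1h2br and 0% at Hist1h2bq, so the covered middle of Hist1h2ap with Hist1h2br is an uncertain call. Among other divergent protein-coding pairs with the same range of distances and a peak within 1 kb, the middle was covered in 153 of 229 (66.8%). Of the sequence between the start sites a median of 8.21% was covered in the histone pairs and 82.8% in the other pairs. None of it was covered in 5 of 12 histone pairs (41.7%) and in 13.1% of the other pairs.

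Where both genes of a pair had a peak, each usually had its own. In 8 of the 12 pairs both coding sequences had a peak, and in 1 of the 8 (Hist1h2ap and Hist1h2br, an uncertain call) it was the same peak. In Hist1h2ac and Hist1h2bc, for example, the H2A gene had a peak of rank 6748 and the H2B gene one of rank 7928, and 10.2% of the DNA between the coding sequences was covered. In Hist2h2ac and Hist2h2be the peaks had ranks 3273 and 6671, with 68.8% of that DNA covered. The remaining 4 pairs had a peak over 1 coding sequence, and the gene without one was H2B in each of them (Hist1h2bn, Hist1h2bp, Hist1h2bf and Hist1h2bh). Over the 11 H2A and H2B pairs with a peak near the middle, the H2A coding sequence had a peak in 11 and the H2B coding sequence in 8. The pair without any peak was that of the testis genes Hist1h2ba and Hist1h2aa.

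**Figure D5:**
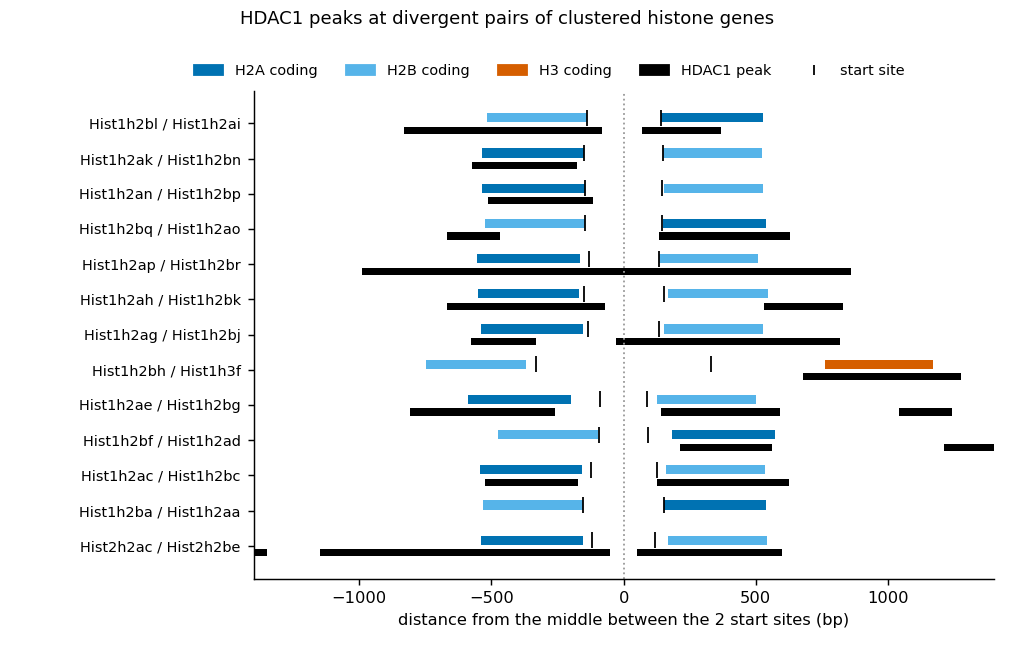
Peaks at the 13 divergent pairs of clustered histone genes, aligned on the middle between the start sites (dotted line, distance in bp). Coloured bars are coding sequences by histone type, ticks are start sites and black bars are HDAC1 peaks. Black bars cross the dotted line in 2 pairs, and the pair Hist1h2ba and Hist1h2aa has none.

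The sequences under the peaks are in part shared between copies, which bears on how reads can be placed. Of the peaks that lay wholly inside a coding sequence, those at Hist3h2a (rank 3758, chr11:58954750-58954999, plus strand), Hist1h1a (rank 11621, chr13:23763800-23764049, plus strand) and Hist1h4f (rank 15062, chr13:23551350-23551599, minus strand) are given here as examples of little and of much shared sequence. Hist1h1a was chosen after its values had been seen. Each is written 5′ to 3′ on the strand of the gene from the mm10 reference, and capitals mark bases inside a 32-base word of the coding sequence that occurs at more than 1 place in the genome.
Hist3h2a: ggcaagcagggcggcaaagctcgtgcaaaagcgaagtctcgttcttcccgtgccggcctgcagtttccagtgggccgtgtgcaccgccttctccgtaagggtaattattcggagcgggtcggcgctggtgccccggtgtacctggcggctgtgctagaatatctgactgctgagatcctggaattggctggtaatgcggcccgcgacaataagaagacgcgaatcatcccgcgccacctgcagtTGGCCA
Hist1h1a: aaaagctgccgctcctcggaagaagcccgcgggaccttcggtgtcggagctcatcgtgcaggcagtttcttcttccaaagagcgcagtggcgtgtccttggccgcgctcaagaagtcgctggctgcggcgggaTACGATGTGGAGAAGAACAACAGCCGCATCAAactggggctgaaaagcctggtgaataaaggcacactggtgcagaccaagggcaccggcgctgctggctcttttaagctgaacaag
Hist1h4f: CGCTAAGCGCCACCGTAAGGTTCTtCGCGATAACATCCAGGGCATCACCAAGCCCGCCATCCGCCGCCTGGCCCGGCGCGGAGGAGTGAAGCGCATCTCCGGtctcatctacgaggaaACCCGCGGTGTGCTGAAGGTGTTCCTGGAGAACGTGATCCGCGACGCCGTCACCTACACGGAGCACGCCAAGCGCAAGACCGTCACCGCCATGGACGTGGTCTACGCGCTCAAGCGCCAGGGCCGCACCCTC
Of the 250 bases of each peak, 2.40% were in such words at Hist3h2a, 12.8% at Hist1h1a and 93.2% at Hist1h4f.

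Over all members, the share of 32-base words of the coding sequence that recur in the genome had a median of 86.7% (0.164 to 100%) in the 53 genes with a peak over the coding sequence and 67.0% (0 to 95%) in the 14 without. A peak over the coding sequence was present in 10 of 14 genes (71.4%) with under 50% recurring words, 24 of 33 (72.7%) with 50 to under 90%, and 19 of 20 (95%) with at least 90%. Peaks were thus also found at genes with nearly unique coding sequences, among them Hist4h4 (0.360% of words recurring) and Hist1h1a (0.164%), whereas Hist1h1t, in which none recurred, had none. There were 5 sets of members with identical coding sequences, 10 genes in all, and each of the 10 had a peak over the coding sequence. These were Hist1h2ao with Hist1h2ap, Hist1h2bq with Hist1h2br, Hist1h4m with Hist1h4n, Hist2h2aa1 with Hist2h2aa2 and Hist2h3c1 with Hist2h3c2. The 2 copies of each set cannot be told apart from reads inside the coding sequence, so their calls are uncertain, and the 2 best ranked long peaks of Hist2 fall in such copies. For Hist1h2bq and Hist1h2br the identical sequence extends beyond the coding sequence, over 300 bases around the start. How reads that match several places were treated is not given in the sources used here, and the part of shared sequence in the position of the peaks was not tested. GC content also moved with the calls, with a median of 66.7% in coding sequences under a peak and 62.7% in those without, and its part was not tested.

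The 3′ stem-loop, the element that is bound by SLBP and directs processing of the transcript end, was searched for as a mark of replication-dependent histone genes. The general form of this element, a stem of paired bases around a loop rich in T, was found on the gene strand within 200 bp after the stop codon in 63 of 67 members, a median of 30.0 bases after it (21 to 58). The same search found it after the stop codon of 6 of 21784 other protein-coding genes (0.0275%). The 16-base element had 6 different sequences, and 1 gene is shown for each, on the gene strand of mm10 with the 16 bases in capitals.
Hist2h3b (chr3:96269130-96269155, plus strand): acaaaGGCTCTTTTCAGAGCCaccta
Hist1h3e (chr13:23561898-23561923, minus strand): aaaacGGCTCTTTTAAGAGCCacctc
Hist1h4f (chr13:23551286-23551311, minus strand): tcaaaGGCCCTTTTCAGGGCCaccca
Hist1h4i (chr13:22040961-22040986, minus strand): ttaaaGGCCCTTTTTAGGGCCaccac
Hist1h4b (chr13:23757361-23757386, plus strand): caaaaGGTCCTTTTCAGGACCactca
Hist2h2ac (chr3:96220413-96220438, minus strand): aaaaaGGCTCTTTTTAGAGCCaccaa
The form of Hist2h3b was present in 41 genes, that of Hist1h3e in 9, that of Hist1h4f in 8, those of Hist1h4i and Hist1h4b in 2 each and that of Hist2h2ac in 1. The element with 5 bases on each side lay wholly under a peak in 28 of the 63 genes (44.4%), and the stop codon was under a peak in 40 of the 67. The covered elements numbered 18 of 41 for the form of Hist2h3b, 5 of 9 for that of Hist1h3e and 3 of 8 for that of Hist1h4f. No match was found within the window in Hist1h2an, Hist1h3g, Hist1h4a and Hist2h2be, all of which had an HDAC1 peak.

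Promoter windows from RefSeq (GRCm38.p6), from 250 bases before to 50 bases after the start, were matched to 62 of the 67 genes. The genes not matched were Hist2h2be, Hist2h4, Hist1h3f, Hist1h2bc and Hist1h3a. Windows are printed for Hist1h3e, which had the best ranked peak of Hist1, for Hist2h2bb, whose coding sequence lay under a low ranked peak (14207), for Hist4h4 (10502), and for the testis gene Hist1h2aa, with none. Capitals mark matches on either strand, which may overlap, to a set of known promoter elements. The set holds the octamer ATTTGCAT, the NF-Y box with the letters CCAAT, the core promoter box spelled TATAAA, and the H1 promoter element known as the H1 box, spelled as AAACACA.
Hist1h3e (chr13:23562336-23562635, minus strand): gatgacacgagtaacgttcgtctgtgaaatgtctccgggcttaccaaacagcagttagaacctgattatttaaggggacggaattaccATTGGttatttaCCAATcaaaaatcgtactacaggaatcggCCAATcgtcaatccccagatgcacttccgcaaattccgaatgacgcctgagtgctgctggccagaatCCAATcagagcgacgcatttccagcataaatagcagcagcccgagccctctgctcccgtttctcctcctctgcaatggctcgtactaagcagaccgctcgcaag
Hist2h2bb (chr3:96269450-96269749, plus strand): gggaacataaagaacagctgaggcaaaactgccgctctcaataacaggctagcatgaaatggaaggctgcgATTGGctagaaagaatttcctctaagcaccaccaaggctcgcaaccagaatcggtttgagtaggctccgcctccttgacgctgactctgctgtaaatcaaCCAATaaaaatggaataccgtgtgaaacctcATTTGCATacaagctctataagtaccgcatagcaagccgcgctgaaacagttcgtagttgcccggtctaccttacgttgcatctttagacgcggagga
Hist4h4 (chr6:136804382-136804681, minus strand): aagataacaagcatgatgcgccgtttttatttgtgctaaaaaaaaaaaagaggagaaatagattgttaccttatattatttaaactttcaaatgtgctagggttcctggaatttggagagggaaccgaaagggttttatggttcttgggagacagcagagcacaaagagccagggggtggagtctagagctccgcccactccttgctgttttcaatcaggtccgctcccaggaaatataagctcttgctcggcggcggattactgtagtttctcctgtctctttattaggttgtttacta
Hist1h2aa (chr13:23934187-23934486, plus strand): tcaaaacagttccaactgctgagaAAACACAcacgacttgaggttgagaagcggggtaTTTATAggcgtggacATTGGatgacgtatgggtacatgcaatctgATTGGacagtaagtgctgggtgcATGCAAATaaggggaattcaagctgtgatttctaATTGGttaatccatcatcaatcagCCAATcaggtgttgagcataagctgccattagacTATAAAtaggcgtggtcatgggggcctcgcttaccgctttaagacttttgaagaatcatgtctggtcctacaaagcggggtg
Peaks covered 21.3% of the window of Hist1h3e, 33.3% of that of Hist2h2bb, 22.7% of that of Hist4h4 and 0% of that of Hist1h2aa. Over the 62 windows the median covered was 11.7%, with 24 windows free of any peak and 8 wholly covered.

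The motifs in the promoter windows differed by histone type. CCAAT, the box bound by NF-Y, was in 53 of 62 windows (85.5%, against 37.4% of all 32851 promoter windows in the table), namely in every H1, H2A, H2B and H3 window and in 3 of 12 H4 windows. The octamer, which is bound by POU factors, was in 14 (22.6%, against 1.74%), namely in 7 of 18 H2A and 7 of 16 H2B windows. Windows of divergent partners can overlap, so the same site can count for both genes. This held for the octamers of Hist1h2aa with Hist1h2ba, Hist1h2ah with Hist1h2bk and Hist1h2ae with Hist1h2bg. Hist1h2aa and Hist1h2ba also shared an H1 box. TATAAA was in 35 windows (56.5%, against 13.6%). The H1 box was in 9 (14.5%, against 7.18%), including 5 of 6 H1 windows. Of the 14 genes with an octamer 10 had a peak over the coding sequence, as did 38 of the 48 others. A match is a description of letters and does not show that a factor binds there.

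A list of histone genes outside the clusters was taken as replication-independent by name, and their expression was not examined. Of 16 such genes 11 (68.8%, interval 44.4 to 85.8%) had a peak within 1 kb, against 47.2% of all protein-coding genes, and the interval overlaps that of the clustered genes. The best ranked were at H3f3b (rank 309, 1450 bp), which encodes the replacement form of H3, at the linker histone gene H1fx (rank 443, 1750 bp) and at H2afx (rank 507, 1650 bp), which encodes the H2A variant phosphorylated at DNA breaks. All 3 ranked above every clustered histone gene. The 5 without a peak were the germ cell genes H1fnt, H1foo, H2afb1, H2afb2 and H2afb3. In the 11 genes with a peak the TSS of the principal transcript was covered in 8 (72.7%, interval 43.4 to 90.3%). In clustered genes this share was 52.6% (39.9 to 65.0%), and the intervals overlapped. Counting any annotated TSS, 11 of all 16 genes (68.8%) had a covered start, against 30 of 67 clustered genes (44.8%). The midpoint between the first and last coding base was covered in 6 of the 11 (54.5%, interval 28.0 to 78.7%), against 89.5% (78.9 to 95.1%) in clustered genes. These midpoint shares are not like measures, since the point can lie in an intron in genes with introns.

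Genes for factors that act on histone genes, transcripts or proteins were set beside these lists. Of 30 such genes 27 (90%, interval 74.4 to 96.5%) had a peak within 1 kb, against 47.2% of all protein-coding genes, and 15 (50%) had one over the coding sequence, against 26.7%. The best ranked were Ccne2 (rank 52), which encodes a cyclin E, Pou2f1 (rank 341), which encodes an octamer-binding factor, and Yy1 (rank 437), a zinc finger factor gene. No peak lay within 1 kb of Chaf1a, the large subunit of chromatin assembly factor, Lsm10, a component of the U7 particle that processes histone transcripts, or Zfp473, a protein linked to that particle.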

How the data were processed

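HDAC1 ChIP-seq was carried out on 4 HDAC1 ChIP and 3 input samples. The submitters' processing notes name Bowtie2 2.2.5 and mm10. The authors called peaks with CisGenome and deposited 1 list of peak coordinates in rank order, with no read counts, and peak ends fall on steps of 50 bp. Whether starts are counted from 0 or 1 is not stated. They were read as 1-based with both ends included, and an overlap needed at least 1 bp.

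Genes and coding sequences, without the stop codon, were taken from GENCODE M21, and sequence from GRCm38.p6. The principal transcript was the basic coding transcript with the best APPRIS label. Each gene was extended by 1 kb. Hist1 was split where members lay more than 300 kb apart. Recurring sequence was counted as exact words of 32 bases on 21 chromosomes. Shares have 95% Wilson intervals, and intervals of medians come from order statistics. The members, comparison lists and measures were chosen with earlier results of these data known. Genes named were those without a peak, at the 5 highest ranked, 5 lowest ranked and 5 longest peaks, all of Hist2, Hist3 and Hist4, the 3 testis genes, and of each comparison list the 3 highest ranked and up to 5 without a peak. Others were named after their values were seen. From the lists H3f3c, which is not protein coding in M21, and Slbp2, which was not found in it, were left out. Alternatives were other flanks, overlap rules, parts of the list and merging of peaks within 1000 bp. On simulated data the overlap procedure gave the same answer as counting single bases in 2000 of 2000 regions. Python 3.11.15, numpy 2.4.6, pandas 2.3.3, scipy 1.17.1 and matplotlib 3.10.9 were used.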

Additional observations from a re-analysis of the deposited data

How the results depend on the processing

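For 20 results 105 values were computed under alternatives. Those given here left the interval of the reported share or median or, for a number of genes, changed by more than 1.5 times. No paired analysis was possible because 1 pooled list stands for all samples, and for the same reason no replicate could be left out. With 5 kb flanks the share with a peak was 94.0% for all members, 94.4% for H2B, 100% for H3, 92.3% for H4, 92.6% for Hist1 and 50.3% for all protein-coding genes. With a peak required over a TSS it was 44.8% (30 genes), 55.6% for H2A, 27.8% for H2B, 38.5% for H4, 38.9% for Hist1, 0% for Hist3, 56.7% for the factor genes, 0% for other genes in the clusters and 32.8% for all protein-coding genes. With peaks required over at least 50% of the gene body it was 53.7% (36 genes), 16.7% for H1, 27.8% for H2B, 46.2% for H4, 50% for Hist1, 0% for Hist4, 25% for the replication-independent genes, 0% for the factor genes, 0% for other genes in the clusters and 1.08% for all protein-coding genes. With the first 7674 peaks it was 62.7%, 38.5% for H4, 57.4% for Hist1, 0% for Hist4, 66.7% for the factor genes and 32.3% for all protein-coding genes, and the median rank became 5620. Over the gene body alone, all protein-coding genes gave 45.0%. Over the coding sequence, a rule chosen after seeing the data, they gave 26.7%, the factor genes 50% and other genes in the clusters 10%. Merging peaks moved the median length to 950 bp and the ratio of peak to gene length to 0.853. Taking 1 peak per gene moved the median rank to 5783. In every alternative that set members beside all protein-coding genes, the share of members was the higher one. Depth limits what can be said, since the read number behind a peak is not known and a gene without a peak may lie below the calling threshold.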
